A study of Mus musculus with 12 samples.

Results

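Cholesterol is made in the liver from acetyl-CoA through mevalonate and isoprenoid units, which are joined into squalene and closed into sterol rings. The transcription factor SREBP2, encoded by Srebf2, drives most genes of the pathway when sterols in the endoplasmic reticulum run low, and sterols hold it back through the Insig proteins. The group described here holds 6 listed genes of that pathway. They are Srebf2 itself, Hmgcs1 (cytosolic HMG-CoA synthase, which forms the precursor of mevalonate), Idi1 (which interconverts the isoprenoid units), Sqle (squalene epoxidase, a rate-limiting oxygenation), Cyp51 (lanosterol demethylase) and Hsd17b7 (a ketoreductase that acts on sterols after lanosterol and also on estrogens). Members were taken as genes with a probe set whose only annotated symbol is theirs, and 5 of the 6 qualified, out of 22180 genes measured. The probe set of Idi1 also carries a further symbol, so no value is given for Idi1. Each of the other 5 genes was covered by 1 such probe set.

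The values are log2 signals of 12 livers from male C57BL/6 mice, 1 mouse per array and 3 mice per group. Ahnak encodes a giant scaffold protein, and mice without it (KO) received a high-fat diet (HFD, 60% fat) or regular chow, as did wild-type (WT) mice. Diets ran for 8 weeks in weight-matched groups. The sources used here do not give the age or substrain of the mice or the part of Ahnak that was deleted. Array medians lay between 5.58 and 5.70. Log2 signals of Ahnak were 6.46 to 6.62 in KO on HFD, 6.38 to 6.74 in KO on chow, 6.74 to 7.26 in WT on HFD and 6.50 to 6.83 in WT on chow, and these do not check the genotype, since a probe set outside the deleted part would still give signal. All 11 hepatocyte markers had high signals, with array means of 13.26 to 13.34 over the list. On the first principal component the 3 WT HFD livers scored 30.0 to 32.3 and the remaining 9 scored -18.5 to -4.0, so each result that involves them rests on livers that also differed in many other genes.

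In the promoters, 4 of the 5 members with an entry in the RefSeq promoter table (assembly GRCm38.p6) held the letters TCACCNCA within the 250 bases before the annotated start. SREBP proteins bind sterol regulatory elements, and letters of this kind form the core of classic ones. The stretches, 120 bases each, are shown for the 4 members with a match. Whether these letters bear on the levels in these livers was not tested. They are printed on the strand of the gene, with the match in capitals.
Srebf2, chr15:82147051-82147170, plus strand: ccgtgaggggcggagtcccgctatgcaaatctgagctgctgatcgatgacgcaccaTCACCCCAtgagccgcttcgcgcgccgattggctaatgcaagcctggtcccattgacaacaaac
Hmgcs1, chr13:119690158-119690277, plus strand: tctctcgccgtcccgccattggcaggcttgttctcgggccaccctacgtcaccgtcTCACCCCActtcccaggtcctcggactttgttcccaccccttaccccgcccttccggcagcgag
Cyp51, chr5:4104722-4104841, minus strand: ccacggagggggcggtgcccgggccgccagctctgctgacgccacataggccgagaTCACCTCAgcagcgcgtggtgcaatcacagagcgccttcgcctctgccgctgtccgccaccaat
Hsd17b7, chr1:169969259-169969378, minus strand: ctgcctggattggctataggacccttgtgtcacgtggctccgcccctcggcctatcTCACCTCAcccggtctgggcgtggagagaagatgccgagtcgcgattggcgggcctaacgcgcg

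Srebf2 and Hmgcs1 share the letters TCACCCCA, while Cyp51 and Hsd17b7 share TCACCTCA. Matches began 162 bases before the start in Srebf2, 137 in Hmgcs1, 88 in Cyp51 and 117 in Hsd17b7, all on the strand of the gene. Idi1 held no match, and Sqle was not in the table. The motif occurred on either strand in 3.61% of all 32851 promoters. The motif was chosen after these promoters had been read. CCAAT, the box bound by NF-Y, a usual partner of SREBP, occurred on either strand in all 5 promoters, against 33.8% of all promoters. CACGTG, the E-box letters bound by basic helix-loop-helix factors, occurred in Hsd17b7 alone among the 5 and in 6.02% of all promoters. The CCAAT and CACGTG matches did not overlap the TCACCNCA matches. A match is a description of letters and shows no binding.

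Of the members, 1 gene passed the test. Hsd17b7 was low in WT mice on HFD and high in the other 3 groups, whereas Srebf2, Hmgcs1, Sqle and Cyp51 did not pass in any of the 5 comparisons. The comparisons were KO minus WT on HFD, KO minus WT on chow, HFD minus chow in KO, HFD minus chow in WT, and the interaction of genotype and diet. Calls required a limma adjusted p under 0.05 in a fit over all 12 arrays and all 22180 genes, and differences are given on the log2 scale plus or minus the standard error (SE). In KO minus WT, rose and fell mean higher and lower in KO than in WT of the same diet. The median difference of the 5 members was 0.52 for KO minus WT on HFD, 0.01 on chow, 0.03 for diet in KO, -0.53 for diet in WT and 0.60 in the interaction, where all genes had medians of 0.00. For KO minus WT on HFD 3 members lay above 0 and 2 below, so the median does not stand for a shared rise. For diet in WT 1 lay above 0 and 4 below, and in the interaction 4 above and 1 below. The livers are bulk tissue, so fewer cells of a type and less RNA per cell cannot be told apart.

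**Figure D1:**
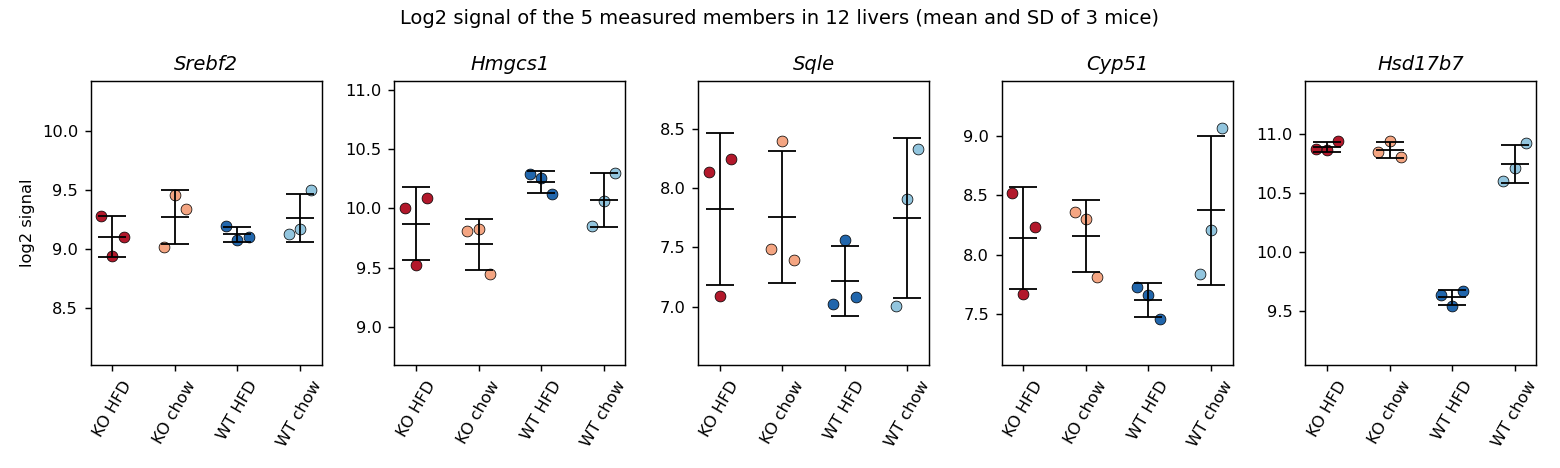
Log2 signal (vertical axis, the same span of 2.4 units in each panel) of the 5 measured members in each of 12 livers, by group, with bars for the mean and SD of 3 mice. Hsd17b7 is at 9.55 to 9.67 in WT on HFD and at 10.60 or above in every other liver, while Sqle and Cyp51 spread widely inside most groups.

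In KO livers the log2 signals of Hsd17b7 were 10.87, 10.86 and 10.94 on HFD and 10.85, 10.94 and 10.80 on chow. In WT livers they were 9.64, 9.55 and 9.67 on HFD and 10.60, 10.71 and 10.92 on chow. The 3 WT livers on HFD lay below all 9 others, and the other 3 groups overlapped with their neighbours in level. On HFD, Hsd17b7 averaged 10.89 ± 0.05 in KO and 9.62 ± 0.06 in WT (SD, n = 3 each). It was higher in KO than in WT by 1.27 ± 0.09 (limma adjusted p = 8.86e-06), a 2.42-fold difference, with a 95% interval of 1.07 to 1.47. By p value this was the 25th smallest of all 22180 genes in that comparison. Among all genes 10.5% were called on HFD, 3.89% higher and 6.62% lower in KO, and of the 5 members 1 was called, higher. KO livers lay wholly above WT livers for 13% of all genes on HFD. Centring arrays on their medians turned the calls over all genes to 545 higher and 1937 lower, against 862 and 1469 as deposited.

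On chow, Hsd17b7 averaged 10.86 ± 0.07 in KO and 10.74 ± 0.16 in WT, and the difference of 0.12 ± 0.09 did not pass (limma adjusted p = 0.836, 95% interval -0.08 to 0.32). On chow 0 of 5 members passed, 1 with an unadjusted p under 0.05, and 0.00902% of all genes passed. The genotype difference was larger on HFD than on chow by 1.15 ± 0.13 (interaction, limma adjusted p = 0.000618, 95% interval 0.87 to 1.44). In the interaction 3.53% of all genes were called, 1.43% with a difference above 0, and 1 of the 5 members was called, with a difference above 0.

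The comparison of diets in WT shares the WT livers on HFD with the comparison of genotypes on HFD. In WT mice Hsd17b7 fell to 9.62 on HFD, against 10.74 on chow, a difference of -1.12 ± 0.09 (limma adjusted p = 3.36e-05, 95% interval -1.32 to -0.92). In KO mice the HFD minus chow difference was 0.03 ± 0.09 (limma adjusted p = 0.964, 95% interval -0.17 to 0.23). Of all genes 6.96% were called for diet in WT (2.94% of all genes as lower on HFD) and 0.243% in KO, and of the members 1 was called in WT, lower, and 0 in KO, where 0 members also had an unadjusted p under 0.05. For no member did the HFD and chow livers of KO mice stay apart, while they did for 13.8% of all genes. With arrays centred on their medians the calls over all genes were 1089 higher and 457 lower for diet in WT, against 891 and 652 as deposited, and 221 and 623 in the interaction, against 318 and 465. All 3 calls of Hsd17b7 held whichever of the 12 arrays was left out, with adjusted p values of up to 0.000123 for KO minus WT on HFD, 0.000375 for diet in WT and 0.00308 for the interaction.

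**Figure D2:**
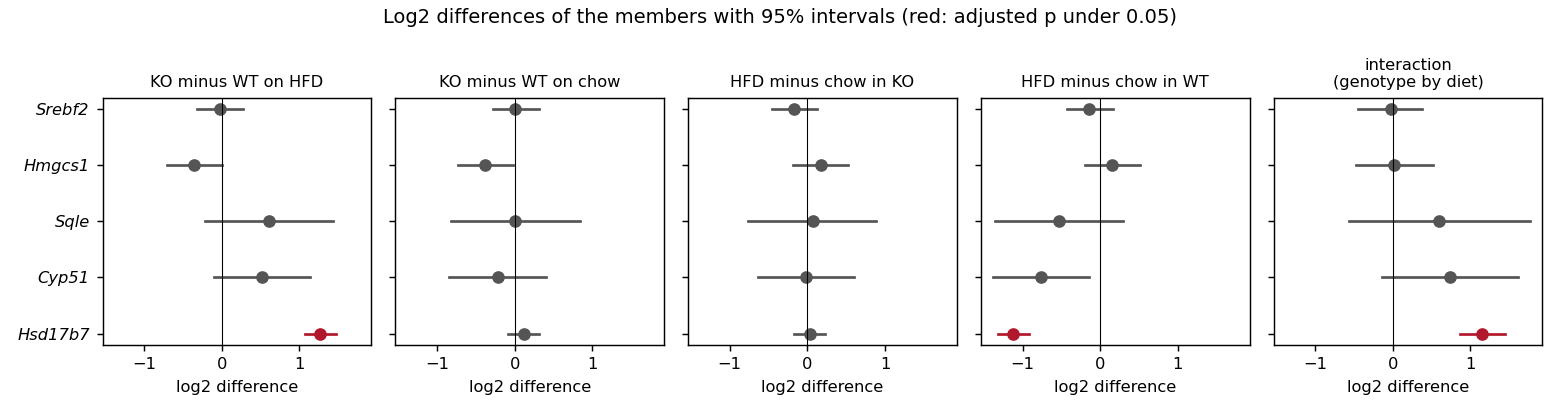
Log2 differences (horizontal axis) of the 5 members in the 5 comparisons, with 95% intervals of the limma fit, red where the adjusted p was under 0.05. The intervals of Hsd17b7 are narrow and lie away from 0 in KO minus WT on HFD, HFD minus chow in WT and the interaction, and those of Sqle are the widest of the 5 members in each comparison.

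Srebf2, the regulator, had group means of 9.11 to 9.28 and passed in no comparison. In KO livers the log2 signals of Srebf2 were 9.28, 8.94 and 9.10 on HFD and 9.02, 9.46 and 9.34 on chow. In WT livers they were 9.20, 9.08 and 9.10 on HFD and 9.13, 9.17 and 9.50 on chow. Every pair of groups next to each other in level overlapped. KO minus WT was -0.02 ± 0.14 on HFD (limma adjusted p = 0.953, 95% interval -0.32 to 0.27) and 0.01 ± 0.14 on chow (adjusted p = 0.994, 95% interval -0.28 to 0.31). HFD minus chow was -0.17 ± 0.14 in KO and -0.14 ± 0.14 in WT (adjusted p = 0.793 and 0.641). The widest bound of the 4 intervals was -0.46, for diet in KO. SREBP2 is activated by cleavage of the protein, which the mRNA level does not measure.

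Hmgcs1, at the entry to mevalonate, was the member whose KO and WT livers did not overlap on either diet. In KO livers the log2 signals of Hmgcs1 were 9.9999, 9.52 and 10.09 on HFD and 9.81, 9.83 and 9.45 on chow. In WT livers they were 10.29, 10.26 and 10.12 on HFD and 9.85, 10.06 and 10.30 on chow. All KO livers lay below all WT livers of the same diet, on HFD and on chow. The differences did not pass, at -0.36 ± 0.16 on HFD (limma adjusted p = 0.205, 95% interval -0.71 to -0.00) and -0.38 ± 0.16 on chow (adjusted p = 0.672, 95% interval -0.73 to -0.02). KO and WT arrays failed to overlap for 28.6% of all genes on HFD and for 13.2% on chow, with KO below WT for 15.6% and 7.29%. Averaged over both diets, a comparison added after these values were seen, the difference was -0.37 ± 0.11 (limma adjusted p = 0.101, unadjusted p = 0.00756), where 4.81% of all genes were called. Diet made a difference of 0.17 ± 0.16 in KO and 0.15 ± 0.16 in WT, neither of which passed (adjusted p = 0.831 and 0.672). The promoter of Hmgcs1 holds the core TCACCCCA printed above, as that of Srebf2 does.

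Sqle, the squalene epoxidase, varied widely among mice of the same group and passed in no comparison. In KO livers the log2 signals of Sqle were 8.14, 7.09 and 8.25 on HFD and 7.49, 8.40 and 7.39 on chow. In WT livers they were 7.02, 7.56 and 7.08 on HFD and 7.01, 7.91 and 8.33 on chow. All 4 groups reached down to between 7.01 and 7.39, and only WT on HFD had no liver above 7.56. KO minus WT was 0.61 ± 0.38 on HFD (limma adjusted p = 0.372) and 0.01 ± 0.38 on chow (adjusted p = 0.998). The 95% intervals, -0.22 to 1.43 on HFD and -0.82 to 0.84 on chow, were the widest among the members. HFD minus chow was 0.07 ± 0.38 in KO and -0.53 ± 0.38 in WT (adjusted p = 0.979 and 0.491).

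Cyp51, the lanosterol demethylase, had its lowest group mean in WT on HFD. In KO livers the log2 signals of Cyp51 were 8.52, 7.67 and 8.23 on HFD and 8.36, 8.30 and 7.81 on chow. In WT livers they were 7.73, 7.66 and 7.46 on HFD and 7.84, 8.21 and 9.07 on chow. The WT livers on HFD lay below all WT livers on chow but overlapped with KO livers on HFD. HFD minus chow in WT was -0.76 ± 0.28 (limma adjusted p = 0.148, unadjusted p = 0.021, 95% interval -1.38 to -0.14) and did not pass. WT arrays on HFD and on chow failed to overlap for 26.4% of all genes, with HFD below chow for 12.2%. KO minus WT was 0.52 ± 0.28 on HFD (adjusted p = 0.304) and -0.22 ± 0.28 on chow (adjusted p = 0.908), and HFD minus chow in KO was -0.02 ± 0.28 (adjusted p = 0.992).

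The members differed in how much mice of 1 group varied. The SD within groups was 0.56 for Sqle and 0.42 for Cyp51, larger than that of 99.6% and 98.4% of all genes, against a median of 0.15. It was 0.22 for Hmgcs1 and 0.18 for Srebf2. For Hsd17b7 it was 0.10, larger than that of 17.6% of all genes. Other genes of the pathway with a wide spread were Msmo1, the sterol methyl oxidase (SD 0.49), Nsdhl, which acts beside it in removing methyl groups (0.39), and Fdps, which makes farnesyl diphosphate (0.30).

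Some mice were high or low for most of these genes. In KO on HFD, mouse 2 was the lowest of its group for 5 of 5 members and for 11 of the 12 other cholesterol synthesis genes measured, while the share of all genes for which it was the lowest was 28.4%. In WT on chow, mouse 3 was the highest for 5 of 5 members and 11 of the 12 others (32.3% of all genes), and mouse 1 was the lowest for 5 of 5 and 10 of the 12 (33.9% of all genes). In KO on chow, mouse 3 was the lowest for 4 of 5 members and 11 of the 12 others (34.5% of all genes). Members and others did not always share the highest mouse. In KO on chow, mouse 2 was the highest for 4 of 5 members but 5 of the 12 others (33.3% of all genes). In KO on HFD, mouse 1 was the highest for 2 of 5 members but 10 of the 12 others (32.8% of all genes). In WT on HFD the members did not share an order, with mouse 1 highest for 3 of them and mice 2 and 3 for 1 each, while mouse 3 was the highest for 10 of the 12 others (34.8% of all genes). Averaged over the 5 members, KO mouse 2 on HFD lay 0.35 log2 units below its group mean and WT mouse 3 on chow 0.38 above, while over all genes both arrays deviated by 0.01 or less. The sources used here do not give the times of feeding and of tissue collection.

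**Figure D3:**
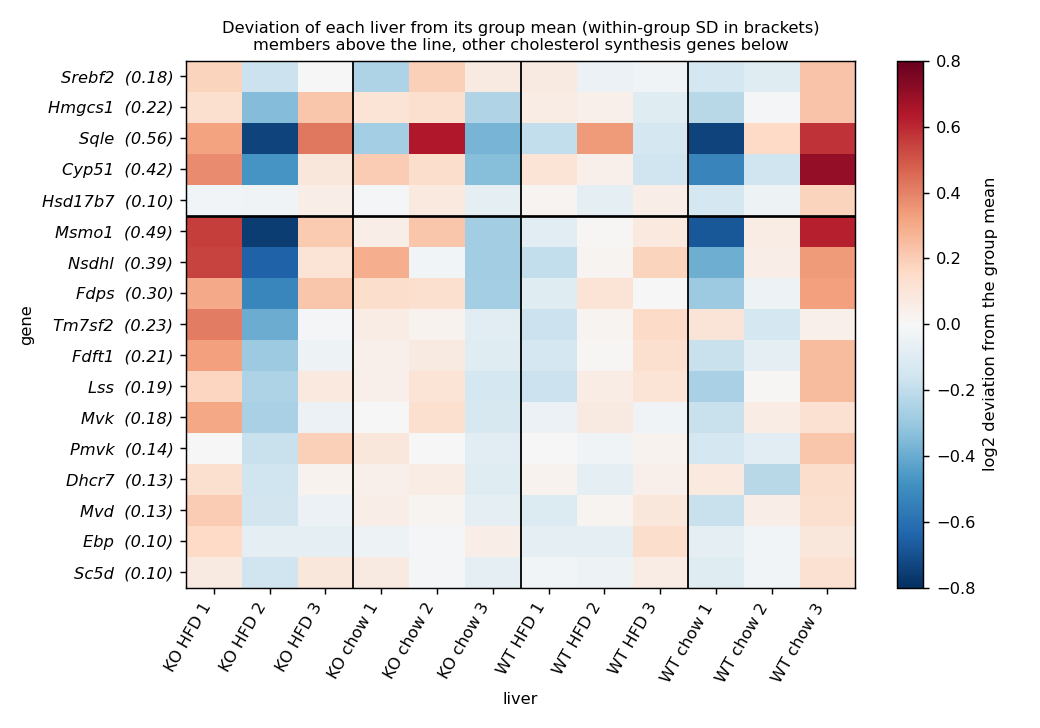
Log2 deviation of each liver (columns, by group) from the mean of its group for the 5 members (above the line) and 12 other cholesterol synthesis genes (below), with the SD within groups beside each name. KO HFD 2 and WT chow 1 are low and WT chow 3 is high for most genes, and Hsd17b7 deviates little in any liver.

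Of 15 other cholesterol synthesis genes listed, 12 were measured. In KO minus WT on HFD 1 rose, 0 fell and 11 did not pass, with a median of 0.01 against 0.00 for all genes. Of all genes 3.89% were called higher and 6.62% lower in that comparison. The gene that rose was Dhcr7, the reductase of the final step, which averaged 8.94 ± 0.15 in KO and 8.49 ± 0.06 in WT, a difference of 0.45 ± 0.11 (limma adjusted p = 0.0211). This call was lost without KO HFD 1, KO HFD 3 or any 1 of the 3 WT HFD arrays, where its adjusted p reached 0.0756. Fdft1, the squalene synthase, stood at 0.17 ± 0.15 and Lss, the lanosterol synthase, at 0.11 ± 0.15, both not passing. In HFD minus chow in WT 0 rose, 1 fell and 11 did not pass, with a median of -0.21. Of all genes 6.96% were called there, 2.94% as lower. Tm7sf2, a sterol reductase that acts after Cyp51, fell by 0.80 ± 0.17 (limma adjusted p = 0.0137). This call was lost without WT HFD 1, WT chow 1 or WT chow 3 (adjusted p of up to 0.057). In KO, HFD minus chow of Tm7sf2 was -0.45 ± 0.17 (adjusted p = 0.478, unadjusted p = 0.0187). Its interaction was 0.35 ± 0.24 (adjusted p = 0.499), so a difference in its diet response between genotypes was not shown. None of the 12 passed in KO minus WT on chow (0 with an unadjusted p under 0.05), HFD minus chow in KO (3) or the interaction (1). The shares of all genes called in these were 0.00902%, 0.243% and 3.53%.

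The list of SREBP control holds Srebf1, which encodes another SREBP, and genes that act on SREBP processing. Of 8 listed 7 were measured, and in KO minus WT on HFD 1 rose, 1 fell and 5 did not pass, where 3.89% of all genes rose and 6.62% fell. Srebf1, which encodes the SREBP of fatty acid synthesis, fell by 0.91 ± 0.13 (limma adjusted p = 0.000846), with 7.95, 7.72 and 7.87 in KO on HFD, against 8.69, 8.68 and 8.92 in WT on HFD. The groups did not overlap, and Srebf1 thus differed where Srebf2 stood at -0.02 ± 0.14. HFD minus chow of Srebf1 was 0.56 ± 0.13 in WT (adjusted p = 0.0195) and -0.04 ± 0.13 in KO (adjusted p = 0.967). The call in WT was lost without WT HFD 3 or WT chow 1 (up to 0.081) and when only the WT arrays were fitted (0.0702). Insig2, which retains SREBP precursors in the endoplasmic reticulum, rose by 0.45 ± 0.12 in KO minus WT on HFD (adjusted p = 0.0357). Its call was lost without KO HFD 2, KO HFD 3, KO chow 2 or any of the WT HFD arrays (adjusted p of up to 0.123) and with arrays centred on their medians or with a replicate block (up to 0.0837). In the same comparison Insig1, both a target and an inhibitor of SREBP, stood at -0.51 ± 0.32 (adjusted p = 0.378), and Scap, the escort of SREBP, at 0.28 ± 0.09 (adjusted p = 0.0682).

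Genes of uptake and intracellular transport were measured for 8 of 11 listed. In KO minus WT on HFD 2 rose, 1 fell and 5 did not pass, where 3.89% of all genes rose and 6.62% fell. Npc1, which exports cholesterol from lysosomes, rose by 0.54 ± 0.12 (limma adjusted p = 0.014) and Lipa, the lysosomal acid lipase that frees cholesterol from its esters, by 0.38 ± 0.08 (adjusted p = 0.0131). Npc2, the soluble partner of Npc1, fell by 0.43 ± 0.09 (adjusted p = 0.0114). Leaving out single arrays ended the call of Npc1 without KO HFD 2, WT HFD 2 or WT HFD 3, that of Lipa without KO HFD 2 or WT HFD 2 and that of Npc2 without WT HFD 3, with adjusted p values of up to 0.0512, 0.0568 and 0.0512. Npc1 also did not pass as the mean of all its probe sets (adjusted p = 0.165), and Lipa did not pass when only the HFD arrays were fitted (adjusted p = 0.0502). For diet in WT 0 of the 8 genes passed, where 6.96% of all genes did. Of the 8, 5 had an unadjusted p under 0.05, and the smallest limma adjusted p was 0.0703. With a trended and robust eBayes, or with brighter genes only, 1 of the 8 was called higher and 2 lower. Without WT chow 1, 1 was called lower. In the interaction Lipa (0.51 ± 0.12, adjusted p = 0.0397) and Mylip (-0.52 ± 0.12, adjusted p = 0.0324) passed, where 3.53% of all genes did. Of 12 fits leaving out 1 array, 10 lost the call of Lipa and 9 that of Mylip.

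In the list of efflux and esterification 7 of 10 genes were measured, of which 1 rose, 3 fell and 3 did not pass in KO minus WT on HFD. Of all genes 3.89% rose and 6.62% fell in that comparison. Nceh1, a neutral cholesterol ester hydrolase, rose by 1.03 ± 0.09 (limma adjusted p = 2.92e-05), with 10.59, 10.70 and 10.87 in KO on HFD, against 9.61, 9.68 and 9.79 in WT on HFD. It also fell in WT on HFD relative to chow, by 0.92 ± 0.09 (adjusted p = 0.000112), and passed in the interaction (1.10, adjusted p = 0.000605). Nceh1 averaged 10.72 in KO on HFD, 10.54 in KO on chow, 9.69 in WT on HFD and 10.61 in WT on chow. Abcg5 and Abcg8, the paired transporters that pass sterols into bile, fell by 0.66 ± 0.12 (adjusted p = 0.00404) and 0.45 ± 0.12 (adjusted p = 0.0317). Abcg1, a cholesterol exporter, fell by 0.38 ± 0.11 (adjusted p = 0.0414). The call of Abcg8 was lost without KO HFD 2, KO HFD 3 or any WT HFD array (adjusted p of up to 0.117), and when only the HFD arrays were fitted (0.0688). That of Abcg1 was lost without any 1 of the HFD arrays, without KO chow 3 or WT chow 2 (up to 0.125), and with quantile normalization or a replicate block (up to 0.0676). Abca1, which loads cholesterol onto high-density lipoprotein, stood at 0.02 ± 0.11 (adjusted p = 0.948). Of 7 listed genes of the isoprenoid branch 6 were measured and 1 fell, Pdss2 of coenzyme Q synthesis, by 0.42 ± 0.10 (adjusted p = 0.0139). For diet in WT Abcg1 passed at 0.41 ± 0.11 (adjusted p = 0.0389), and in the interaction Abcg5 passed at -0.74 ± 0.17 (adjusted p = 0.0337). Of 12 fits leaving out 1 array, 6 lost this call of Abcg1 and 11 that of Abcg5.

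**Figure D4:**
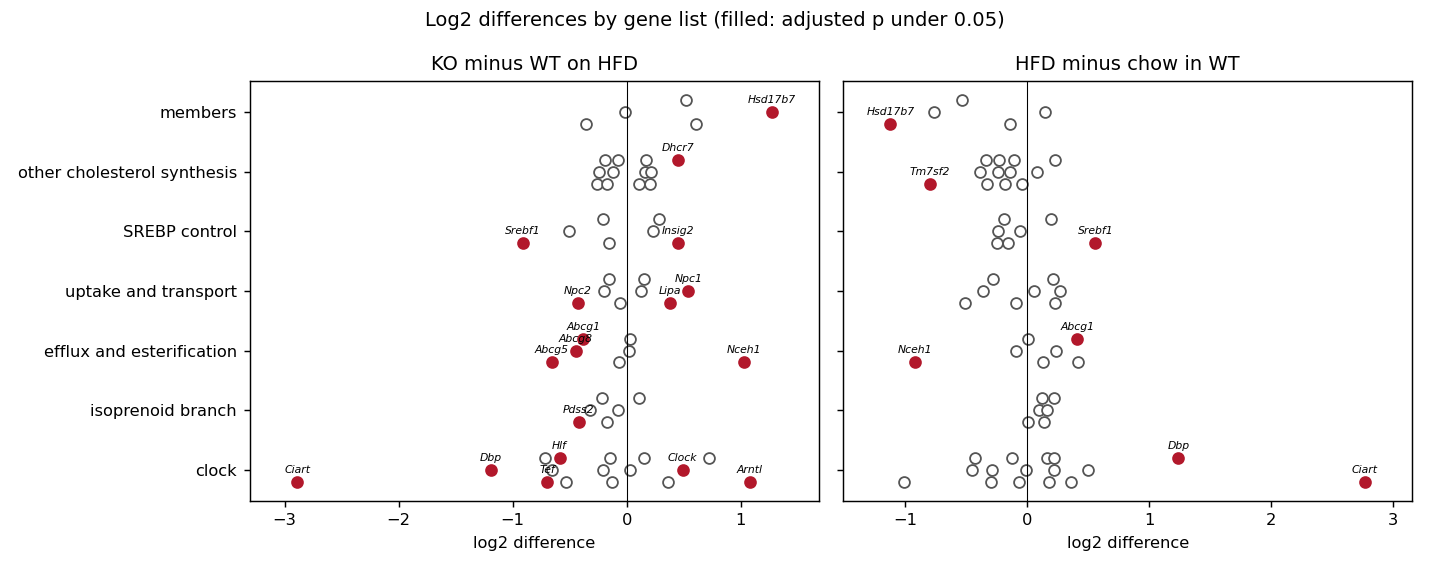
Log2 differences (horizontal axis) of each measured gene by list (rows) for KO minus WT on HFD and HFD minus chow in WT, filled and named where the limma adjusted p was under 0.05. Both panels use the WT livers on HFD, so their values are not independent. Nceh1 is above 0 in KO minus WT on HFD (1.03) and below 0 in HFD minus chow in WT (-0.92).

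Some clock genes and some markers of other cells also differed between KO and WT livers on HFD, in which 10.5% of all genes were called (3.89% higher and 6.62% lower). Of 16 clock genes measured 2 rose, 4 fell and 10 did not pass in KO minus WT on HFD. Their summed level (log2 of summed signals) was 12.94 to 13.32 in KO on HFD and 12.95 to 13.03 in KO on chow. It was 13.28 to 13.36 in WT on HFD and 13.01 to 13.41 in WT on chow. By this measure, in which bright genes weigh most, WT on HFD overlapped with KO on HFD and with WT on chow. The mean log2 signal of the list was 8.13 to 8.67 in KO on HFD and 8.68 to 8.74 in WT on HFD, which did not overlap. It was 8.37 to 8.79 in WT on chow. Ciart, a repressor of the clock, had log2 signals of 7.48, 6.80 and 6.41 in KO on HFD, against 9.50, 9.80 and 10.04 in WT on HFD, and differed by -2.89 ± 0.32 (limma adjusted p = 0.000178). In WT it averaged 9.78 on HFD and 7.01 on chow (adjusted p = 0.000399 for diet), and in KO 6.90 and 7.81. It also passed in the interaction (adjusted p = 0.000982). Dbp, a clock output factor, was lower in KO than in WT on HFD by 1.19 ± 0.26 (adjusted p = 0.0125). Its averages were 8.99 in KO and 10.17 in WT on HFD, and 8.34 and 8.94 on chow. Clock, which encodes a core activator of the clock, rose by 0.49 ± 0.09 in KO minus WT on HFD (adjusted p = 0.00473), a call that held without any 1 of the 12 arrays. Arntl, its partner, also called Bmal1, rose by 1.08 ± 0.29 (adjusted p = 0.032), but leaving out any single HFD array ended that call (up to 0.105), and Nr1d1 stood at 0.36 ± 0.18 (adjusted p = 0.249). Of 12 macrophage markers 0 rose and 2 fell in KO minus WT on HFD, with a summed level of 12.92 to 13.25 in KO and 13.17 to 13.52 in WT, which overlap. Their mean log2 signals, 8.54 to 8.71 in KO and 8.87 to 9.15 in WT, did not overlap. Of 7 stellate cell markers 0 rose and 3 fell, with 12.81 to 12.94 in KO and 12.95 to 13.15 in WT. Endothelial markers were at 12.88 to 12.98 in KO and 13.13 to 13.16 in WT, with 2 of 6 lower. Lymphocyte markers were at 8.74 to 9.15 in KO and 9.01 to 9.12 in WT. Of these 7 markers 1 was called higher, while 6 lay below 0 (median -0.15). Cholangiocyte markers were at 8.99 to 9.08 in KO and 8.78 to 8.87 in WT, with 0 of 4 called. As mean log2 signals they overlapped, at 6.61 to 6.71 in KO and 6.53 to 6.65 in WT. Hepatocyte markers had a summed level of 16.88 to 16.92 in KO on HFD and 16.89 to 16.91 in WT on HFD, with 1 of 11 higher. For diet in WT, 2 of the 12 macrophage markers and 3 of the 7 stellate cell markers were called higher on HFD. Of the 6 endothelial markers 1 was called lower, while 4 of the 6 lay above 0 (median 0.09). Among lymphocyte, cholangiocyte and hepatocyte markers 0 were called. Of all genes 6.96% were called in that comparison. The part of clock genes and of other cells in the level of Hsd17b7 was not tested.

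Genes with the profile most like that of the members were sought by the root mean square difference, over the 12 arrays, between centred log2 profiles of 19378 genes. The mean profile of the 5 members had a size of 0.286. The closest 10 genes, at 0.148 to 0.165, were Caln1, Ucn2, Lss, Lnx2, Myoz2, Gpx5, Chd3, Zfp281, Fdft1 and Zfp609, of which Lss and Fdft1 belong to the same pathway. Msmo1 was the closest gene both to Sqle, at 0.263 where the profile of Sqle has a size of 0.52, and to Cyp51, at 0.229 where that of Cyp51 has 0.439. Hsd17b7 was followed most closely by Serpina1e, a serine protease inhibitor gene, at 0.132, and C8b, a complement gene, at 0.144, against a profile size of 0.534. Serpina1e averaged 12.68 in KO on HFD, 12.50 in KO on chow, 11.33 in WT on HFD and 12.57 in WT on chow. C8b averaged 13.05, 12.76, 11.68 and 12.94 in the same groups. Hmgcs1 lay closest to Nktr (0.121, against a profile size of 0.271) and Srebf2 to Mir376a (0.0744, against 0.164). Mir376a was dim, at 2.17 to 2.57 on arrays with medians of 5.58 to 5.70. Myoz2 (3.91 to 4.35) and Gpx5 (4.14 to 5.04) also lay below these medians, and Ucn2 (4.81 to 5.66) lay near or below them. These distances are descriptions without a test.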

How the data were processed

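Total RNA of mouse liver was measured on whole-transcript arrays, 1 mouse per array. The deposited table holds log2 signals of 41345 probe sets on 12 arrays (1.40 to 14.36, 0 missing). Per the submitters' processing notes the authors used oligo, and the sources used here do not give its version, background step or normalization. Values were used as deposited. Of the probe sets, 23521 had 1 symbol in the array annotation (23328 matched by gene number to RefSeq, assembly GRCm38.p6), 1814 had several and 16010 none here. Genes were represented by their probe set with the highest mean, with no filter on dim genes. All 4 groups entered 1 linear model (limma 3.58.1, lmFit and eBayes, run in R 4.3.3), with Benjamini-Hochberg adjustment over 22180 genes in each comparison. The number of arrays limits the precision. The code was tested on simulated data.

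The members, the gene lists and the alternatives were chosen with earlier results of these data known. Named are all members, up to 4 genes with the smallest p per list and comparison, 12 fixed genes of the lists, and genes of similar profile. Genes in the lists without a single-symbol probe set were not analysed here. Alternatives were leaving out each array, quantile normalization, median centring, array weights, a trended and robust eBayes, a replicate block, brighter genes only, averaging a gene's probe sets, and fitting only the arrays compared.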

Additional observations from a re-analysis of the deposited data

Results flagged for a closer look

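The difference between KO and WT livers in Hsd17b7 was itself different on the 2 diets. On HFD it was 1.27 ± 0.09 and on chow 0.12 ± 0.09 (log2, SE), and the test of the difference between them gave 1.15 ± 0.13 with a limma adjusted p = 0.000618. Of the 5 members no other passed this test. The difference rests on the 3 WT livers on HFD, which all lay below the other 9. Groups of 3 mice are too small for a search for single livers far from the rest of their group.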

How the results depend on the processing

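The number of members called kept its value in all 99 alternative fits over the 5 comparisons, 12 per comparison leaving out 1 array. Of 495 values of single members, 460 kept direction and side of the threshold and 35 turned sign, all 35 with an adjusted p of 0.862 or above; the cause was not tested. With quantile normalization Srebf2 stood at 0.01 for KO minus WT on HFD and 0.00 in the interaction. With array weights Srebf2 stood at -0.00 and Sqle at -0.04 for KO minus WT on chow, Sqle at -0.03 for diet in KO and Hmgcs1 at -0.03 in the interaction, where centring gave -0.04. Without single arrays Srebf2 ranged over -0.11 to 0.06 for KO minus WT on HFD, -0.08 to 0.14 on chow and -0.16 to 0.06 in the interaction, and Hmgcs1 over -0.10 to 0.20 in the interaction. On chow Sqle ranged over -0.36 to 0.30 and Cyp51 over -0.48 to 0.13. For diet in KO Sqle ranged over -0.14 to 0.44, Cyp51 over -0.21 to 0.21 and Hsd17b7 over 0.00 to 0.07.

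Counts over all genes moved more. Genes called were 2331 for KO minus WT on HFD (1506 to 2326 without single arrays, 1670 to 2915 otherwise), 2 on chow (0 to 5 and 0 to 19), 54 for diet in KO (28 to 79 and 21 to 124), 1543 for diet in WT (815 to 1691 and 1060 to 2213) and 783 in the interaction (432 to 718 and 612 to 1394). With the replicate number as a block Hsd17b7 stood at 1.27 for KO minus WT on HFD, -1.12 for diet in WT and 1.15 in the interaction and was called in each, and the genes called were 733 higher and 1340 lower for KO minus WT on HFD. No pairing by number was detected. Deviations of same-numbered arrays correlated at -0.064 to 0.08 over 18 pairs, none over 0.1, and the own number had the highest correlation in 10 of 36 cases. Such correlations over all genes cannot exclude a pairing that touches few genes. Limits are 3 mice per group, the distance of the WT HFD livers from the others, and the unstated normalization and collection time.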
